A study of Homo sapiens with 12 samples.

Results

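Extracellular proteases of the metalloproteinase families and their inhibitors were followed in the established glioma line U87 after knockdown of BCL3 and treatment with temozolomide (TMZ). The members were 10 genes chosen by symbol, of 20046 named on the arrays: the matrix metalloproteinases MMP1, MMP2, MMP3 and MMP14, the tissue inhibitors TIMP1, TIMP2 and TIMP3, the disintegrin proteases ADAM9 and ADAM19, and ADAMTS1. The arrays carried 12 probes for these genes among 47320, with 2 probes each for TIMP2 and ADAM19 and 1 for every other member. A probe was called detected on an array at a detection p-value under 0.01, and 9 of the 12 member probes passed a filter that asked for detection on at least 3 of 12 arrays, as did 18105 probes in all, so 8 of the 10 genes could be tested.

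Matrix metalloproteinases are zinc enzymes that cut collagens, fibronectin and other matrix proteins, and most are made as inactive precursors. ADAM proteases mostly sit in the cell membrane and release the outer parts of other membrane proteins, ADAMTS proteases are secreted and cut proteoglycans among other substrates, and TIMPs bind the active site of these enzymes. In gliomas these families are studied for their part in cell invasion through brain matrix and in the release of growth factors.

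Cells were grown with serum and transfected with siRNA against BCL3 or with a control siRNA, so all 4 groups had been transfected. BCL3, related to the I-kappa-B proteins, is a nuclear partner of NF-kB subunits. TMZ, which methylates DNA and is given to glioma patients, was then added at 100 µM and left for 24 h, with DMSO given to the other cells. Each siRNA, BCL3 or control, was combined with TMZ and with DMSO, which gave 4 groups with 3 Illumina arrays each, all from 1 cell line. The labels do not say whether the replicates were separate cultures, so p-values cover the spread of these samples alone, and that spread may be technical. In RNA from whole cultures, fewer cells making a transcript and less of it per cell cannot be told apart.

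Mean raw intensity ran from 229.6 to 317.5 over the 12 arrays, 16381 to 17839 probes were detected per array, and normalized values of arrays within a group correlated at 0.995 to 0.997. The BCL3 probe was lower with BCL3 siRNA on all 6 arrays than on the 6 with control siRNA, at 6.54 ± 0.02 against 7.30 ± 0.06 on the log2 scale under TMZ and 6.38 ± 0.09 against 7.37 ± 0.11 under DMSO (SD, n = 3). Of 10 glioma line markers 8 passed the detection filter, and GFAP and SOX2 were detected on no array. Of 7 leukocyte markers with a probe, AIF1, CD14, CD68 and CSF1R passed and PTPRC, CD3E and ITGAM were detected on no array. Mean raw intensity under DMSO was 229.6 to 258.0 with BCL3 siRNA and 265.9 to 317.5 with control siRNA. Summed raw intensity under DMSO was lower with BCL3 siRNA for the leukocyte markers (3430 to 3891 against 4669 to 5456) and likewise for the glioma line markers (66417 to 77159 against 83245 to 99833), the endothelial markers (470.8 to 486.2 against 538.2 to 596.8) and the neuron and oligodendrocyte markers (903.5 to 960.0 against 1095 to 1215), so the shift is not particular to 1 list; the epithelial markers overlapped. Under TMZ the leukocyte sums were 3878 to 4509 with BCL3 siRNA and 4332 to 4583 with control siRNA, which overlap. The glioma line and epithelial sums overlapped there too. Lower with BCL3 siRNA under TMZ, without overlap, were the endothelial sums (475.6 to 500.8 against 544.6 to 548.6). So were the neuron and oligodendrocyte sums (957.2 to 1019 against 1061 to 1080). Of the 4 endothelial markers 1 passed the detection filter, and of the 5 neuron and oligodendrocyte markers with a probe 2 passed. The sums of these 2 lists, under either treatment, therefore include probes near background. Mean raw intensity under TMZ was 241.8 to 283.0 with BCL3 siRNA and 260.7 to 263.5 with control siRNA. The part of these shifts in the results was not tested.

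BCL3 siRNA was followed by higher ADAM19 and MMP3 and by lower signal of the brighter TIMP2 probe under both TMZ and DMSO. MMP2, TIMP1, MMP14 and ADAM9 did not pass the test in either. Of the 9 member probes tested under TMZ, 2 rose, 1 fell and 6 did not pass, beside 33.5% of all probes called in that comparison (16.8% risen, 16.7% fallen). Under DMSO 2 rose, 3 fell and 4 did not pass, beside 34.9% of all probes called (17.6% risen, 17.3% fallen). The count under TMZ is near the share among all probes and that under DMSO is above it, but 2 of the calls under DMSO, those of the dimmer TIMP2 probe and of ADAMTS1, were lost in some alternative settings, so nothing particular to the members is read from either count. Groups did not overlap for 3 member probes under TMZ (45.8% of all probes) and for 4 under DMSO (46% of all probes). The median absolute log2 fold change of the 9 probes was 0.15 under TMZ, where all probes had 0.17, and 0.27 under DMSO, where all probes had 0.17. Calls are at an adjusted p-value under 0.05 from limma, over all 18105 probes, and values are log2 normalized intensities, which include an offset that understates changes of dim probes.

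**Figure D1:**
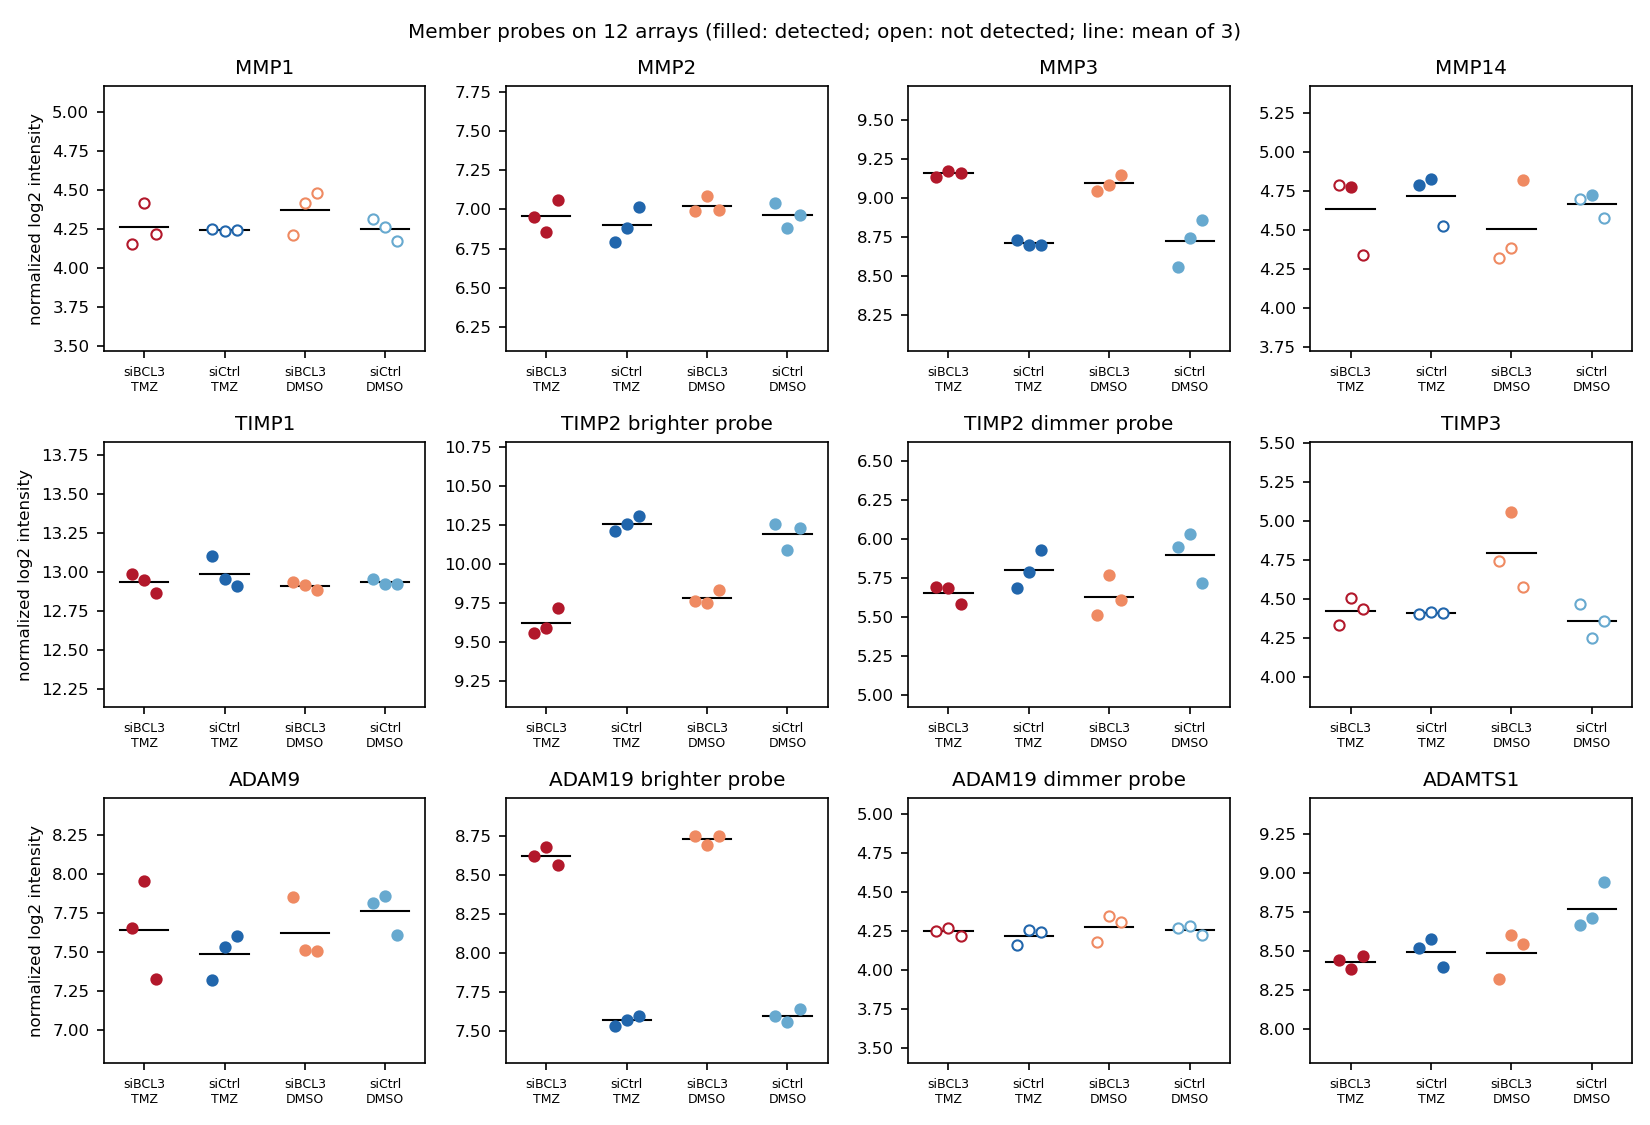
Log2 normalized intensity of the 12 member probes on each of the 12 arrays, by group; filled points are arrays on which the probe was detected and open points are arrays on which it was not. ADAM19 (brighter probe) sits at 8.56 to 8.75 with BCL3 siRNA and at 7.54 to 7.64 with control siRNA. The probes of MMP1, MMP14, TIMP3 and ADAM19 (dimmer probe) have mostly or only open points.

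Among the secreted proteases, MMP3 (stromelysin 1, which cuts several matrix proteins and activates other MMP precursors) was measured by probe ILMN_1784459, detected on 12 of 12 arrays. Its log2 intensity was 9.14, 9.17 and 9.16 with BCL3 siRNA and TMZ, against 8.73, 8.70 and 8.70 with control siRNA and TMZ. It was 9.05, 9.09 and 9.15 with BCL3 siRNA and DMSO, against 8.56, 8.74 and 8.86 with control siRNA and DMSO. Every array of BCL3 siRNA was above every array of control siRNA, and the 3 control arrays under DMSO were spread more widely than those of the other groups. The log2 fold change was 0.45 under TMZ (SE 0.07, adjusted p = 0.0005), 1.36-fold, and 0.37 under DMSO (SE 0.07, adjusted p = 0.00181), 1.29-fold.

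The rise of MMP3 under DMSO is seen after normalization. Its raw intensity there was 557.9, 487.7 and 603.3 with BCL3 siRNA and 510.9, 632 and 537.7 with control siRNA, and these groups overlap. Under TMZ raw MMP3 intensity was 548.5, 706.6 and 681.2 with BCL3 siRNA, against 494.5, 490.4 and 493.7 with control siRNA, and these groups do not overlap. Across 26 alternative settings the normalized log2 fold change stayed past the threshold, between 0.39 and 0.52 under TMZ and between 0.29 and 0.44 under DMSO.

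MMP2 (gelatinase A, which cuts type IV collagen of basement membranes) was detected on 12 of 12 arrays with probe ILMN_1762106. Its log2 intensity was 6.95, 6.86 and 7.06 with BCL3 siRNA and 6.79, 6.88 and 7.02 with control siRNA under TMZ. Under DMSO it was 6.99, 7.09 and 7.00 with BCL3 siRNA and 7.04, 6.88 and 6.96 with control siRNA. All 4 groups of MMP2 overlap, and the log2 difference between siRNAs was 0.06 under TMZ (95% interval -0.11 to 0.22, adjusted p = 0.609) and 0.06 under DMSO (95% interval -0.10 to 0.23, adjusted p = 0.567).

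MMP14, the membrane-bound protease that activates the MMP2 precursor together with TIMP2, lay at the edge of detection. Probe ILMN_1774739 was detected on 1 of 3 BCL3 siRNA and 2 of 3 control siRNA arrays under TMZ and on 1 of 3 arrays of each siRNA under DMSO, and its raw intensity was 89.3 to 109.5. The log2 difference between siRNAs was -0.08 under TMZ (95% interval -0.39 to 0.23) and -0.16 under DMSO (95% interval -0.47 to 0.15), with overlapping groups. MMP1, the interstitial collagenase (probe ILMN_1726448), was detected on 0 of 12 arrays at raw intensities of 82.2 to 95.9, so it was not well above background and was not tested.

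Of the inhibitors, TIMP2, which blocks many MMPs and forms the complex through which MMP14 activates MMP2, was lower with BCL3 siRNA. Its brighter probe, ILMN_1721876, read 9.56, 9.59 and 9.72 with BCL3 siRNA and TMZ, against 10.22, 10.26 and 10.31 with control siRNA and TMZ. It read 9.77, 9.75 and 9.84 with BCL3 siRNA and DMSO, against 10.26, 10.09 and 10.24 with control siRNA and DMSO. All 6 arrays of BCL3 siRNA were below all 6 of control siRNA. The probe fell by 0.64 on the log2 scale under TMZ (SE 0.07, adjusted p = 1.98e-05) and fell by 0.41 under DMSO (SE 0.07, adjusted p = 0.000572), and both calls held in 26 alternative settings.

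The dimmer TIMP2 probe, ILMN_1749078, was also detected on 12 of 12 arrays but moved less. Its log2 intensity was 5.69, 5.69 and 5.58 with BCL3 siRNA and 5.68, 5.79 and 5.93 with control siRNA under TMZ. Under DMSO it was 5.51, 5.77 and 5.61 with BCL3 siRNA and 5.94, 6.03 and 5.71 with control siRNA. The groups overlap in both pairs. The log2 difference was -0.15 under TMZ (adjusted p = 0.266) and -0.27 under DMSO (SE 0.10, adjusted p = 0.0454), and the DMSO call was lost in 13 of 25 alternative settings, with an adjusted p between 0.0136 and 0.167 over all of them and a value of -0.11 without background correction.

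TIMP1, a broad inhibitor of MMPs that also acts as a growth factor, was bright: its mean raw intensity stood at the 99.1 percentile of detected probes. Probe ILMN_1711566 read 12.99, 12.95 and 12.86 with BCL3 siRNA and 13.10, 12.95 and 12.91 with control siRNA under TMZ. Under DMSO it read 12.94, 12.92 and 12.88 with BCL3 siRNA and 12.95, 12.92 and 12.92 with control siRNA. The groups overlap in both pairs. The log2 difference was -0.06 under TMZ (95% interval -0.19 to 0.08) and -0.02 under DMSO (95% interval -0.16 to 0.12), and with median scaling in place of quantile normalization it was 0.12 and 0.16.

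TIMP3, which binds to the matrix and also inhibits ADAM17 and ADAMTS proteases, was detected with probe ILMN_1701461 on 1 of 12 arrays, replicate 2 of BCL3 siRNA and DMSO, and was not tested. Its log2 intensity was 4.74, 5.06 and 4.57 on the arrays of BCL3 siRNA and DMSO, against 4.47, 4.25 and 4.35 with control siRNA and DMSO. Under TMZ it was 4.33, 4.50 and 4.43 with BCL3 siRNA and 4.40, 4.41 and 4.41 with control siRNA. The arrays of BCL3 siRNA and DMSO are the highest on this scale, but raw intensities there were 97.7, 99 and 95.6, against 99.4, 95.4 and 93.3 with control siRNA and DMSO, and these overlap. A fit without the filter passed TIMP3 under DMSO (limma, adjusted p = 0.0145), but the probe was at background on 5 of these 6 arrays, so no fold is given.

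**Figure D2:**
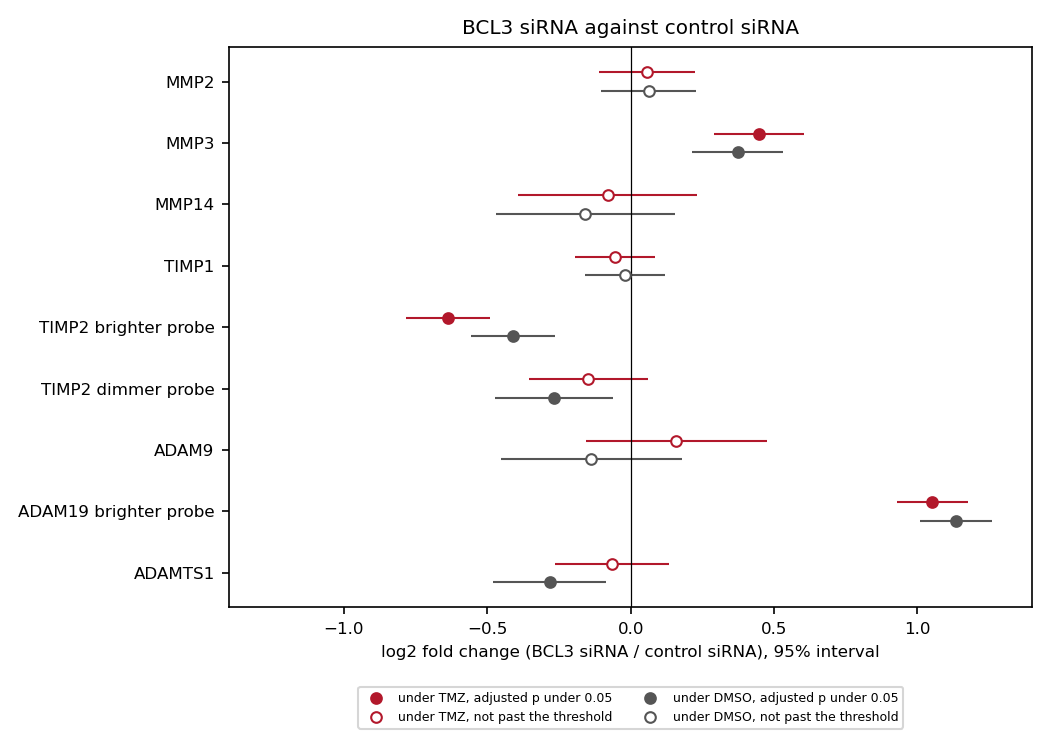
Log2 fold change of BCL3 siRNA over control siRNA for the 9 member probes tested, with 95% intervals from limma, separately under TMZ and under DMSO; filled points passed an adjusted p-value of 0.05. ADAM19 stands at 1.05 and 1.13 and MMP3 at 0.45 and 0.37, and TIMP2 (brighter probe) at -0.64 and -0.41. The intervals of MMP2, MMP14, TIMP1 and ADAM9 cross 0 under both treatments. Those of TIMP2 (dimmer probe) and ADAMTS1 cross 0 under TMZ and not under DMSO.

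Of the ADAM proteases, ADAM19 (meltrin beta, a membrane protease that releases neuregulin and is known from heart and muscle development) rose most among the member probes tested. Probe ILMN_1713751 was detected on 12 of 12 arrays and read 8.62, 8.68 and 8.56 with BCL3 siRNA and TMZ, against 7.54, 7.57 and 7.60 with control siRNA and TMZ. It read 8.75, 8.70 and 8.75 with BCL3 siRNA and DMSO, against 7.60, 7.56 and 7.64 with control siRNA and DMSO. The groups lie about 1 log2 unit apart and do not overlap. The log2 fold change was 1.05 under TMZ (SE 0.06, 95% interval 0.93 to 1.18, adjusted p = 9.91e-08), 2.07-fold, and 1.13 under DMSO (SE 0.06, 95% interval 1.01 to 1.26, adjusted p = 5.36e-08), 2.20-fold. Among all probes it ranked 30 by size of rise under TMZ and 21 under DMSO, where 0.580% of probes moved as far in either direction. Raw ADAM19 intensity did not overlap either, at 401.4, 518.7 and 466 with BCL3 siRNA and TMZ, against 258.5, 266.5 and 272.2 with control siRNA and TMZ. The call held in 26 alternative settings, with log2 fold changes of 0.83 to 1.09 under TMZ and 0.90 to 1.16 under DMSO.

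The second ADAM19 probe, ILMN_1788481, was detected on 0 of 12 arrays at raw intensities of 84.2 to 96.6. It was not well above background and gives no second measurement of the rise. The ADAM19 result thus rests on 1 probe.

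Because ADAM19 carried the largest change of the members, the 250 bases before its annotated start are shown, from RefSeq on GRCh38.p14, minus strand, chr5:157575776-157576025, read 5′ to 3′ towards the start, with matches to a looser NF-kB form in capitals.
ADAM19: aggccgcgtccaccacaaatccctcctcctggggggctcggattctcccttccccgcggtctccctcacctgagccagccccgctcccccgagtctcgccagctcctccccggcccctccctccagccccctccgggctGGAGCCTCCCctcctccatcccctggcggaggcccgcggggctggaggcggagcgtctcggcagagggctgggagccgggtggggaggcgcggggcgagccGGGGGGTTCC
Of these bases 76.4% are G or C. The search covered both strands for TGANTCA (an AP-1 site), CCGGAAG (an ETS site) and the NF-kB consensus, which are held by 6.57%, 8.52% and 5.21% of 35116 promoter windows of the same length. The windows of ADAM19, MMP14, TIMP1 and TIMP3, the 4 of 10 members whose windows are reported, hold none of these. No result is reported for the windows of the remaining members, so nothing is said of them. The NF-kB consensus searched asks for A or T at the sixth of its bases. A looser form with any base there, which includes the consensus and was added after the window had been seen, is held by 9.96% of the windows, in 2 places by that of ADAM19 and by none of the other 3. A match is only a run of letters, and no match says only that these letters are not in the window.

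ADAM9 (meltrin gamma, a widely expressed membrane protease) had the widest spread of the member probes within groups, with a mean SD of 0.20 on the log2 scale. Probe ILMN_1727524 was detected on 12 of 12 arrays and read 7.65, 7.95 and 7.33 with BCL3 siRNA and 7.32, 7.54 and 7.60 with control siRNA under TMZ. Under DMSO it read 7.85, 7.51 and 7.51 with BCL3 siRNA and 7.81, 7.86 and 7.61 with control siRNA. The groups overlap in both pairs. The log2 difference was 0.16 under TMZ (95% interval -0.16 to 0.47, adjusted p = 0.441) and -0.14 under DMSO (95% interval -0.45 to 0.18, adjusted p = 0.501).

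ADAMTS1, a secreted protease that cuts the proteoglycans aggrecan and versican, was lower with BCL3 siRNA under DMSO. Probe ILMN_1673566 read 8.44, 8.38 and 8.47 with BCL3 siRNA and TMZ and 8.51, 8.58 and 8.39 with control siRNA and TMZ. It read 8.32, 8.60 and 8.54 with BCL3 siRNA and DMSO, against 8.66, 8.71 and 8.94 with control siRNA and DMSO. The groups overlap under TMZ and do not under DMSO. The log2 difference was -0.07 under TMZ (adjusted p = 0.628) and -0.28 under DMSO (SE 0.09, adjusted p = 0.0292). The DMSO call was lost in 4 of 26 alternative settings, among them the fits without replicate 1 of BCL3 siRNA and DMSO (adjusted p = 0.116) and without replicate 3 of control siRNA and DMSO (adjusted p = 0.119).

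TMZ against DMSO moved no member probe past the threshold. With BCL3 siRNA 0 of 9 member probes were called by limma, beside 0.475% of all probes, and 1 had an unadjusted p under 0.05, beside 14.2% of all. With control siRNA 0 of 9 were called, beside 0.497% of all probes, and 1 had an unadjusted p under 0.05, beside 13.8% of all. The brighter TIMP2 probe had no overlap between TMZ and DMSO with BCL3 siRNA, at a log2 difference of -0.16 (SE 0.07, unadjusted p = 0.0336, adjusted p = 0.305). ADAMTS1 had no overlap with control siRNA, at -0.27 (SE 0.09, unadjusted p = 0.0102, adjusted p = 0.221). Groups also did not overlap for ADAM19 with BCL3 siRNA (-0.11, adjusted p = 0.407) and for ADAM9 with control siRNA (-0.27, adjusted p = 0.438), which makes 2 member probes with BCL3 siRNA, beside 18.3% of all probes, and 2 with control siRNA, beside 21.5%.

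Whether the effect of BCL3 siRNA differed between TMZ and DMSO was tested as an interaction, and limma called 0 of 18105 probes, with 1252 at an unadjusted p under 0.05. Of the member probes 1 had an unadjusted p under 0.05, the brighter TIMP2 probe at -0.23 (SE 0.10, unadjusted p = 0.0351, adjusted p = 0.70). The ADAMTS1 call under DMSO is therefore not shown to be particular to DMSO, with an interaction of 0.22 (95% interval -0.06 to 0.50, adjusted p = 0.793). For ADAM19 the interaction was -0.08 (95% interval -0.26 to 0.10) and for MMP3 it was 0.07 (95% interval -0.15 to 0.30).

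**Figure D3:**
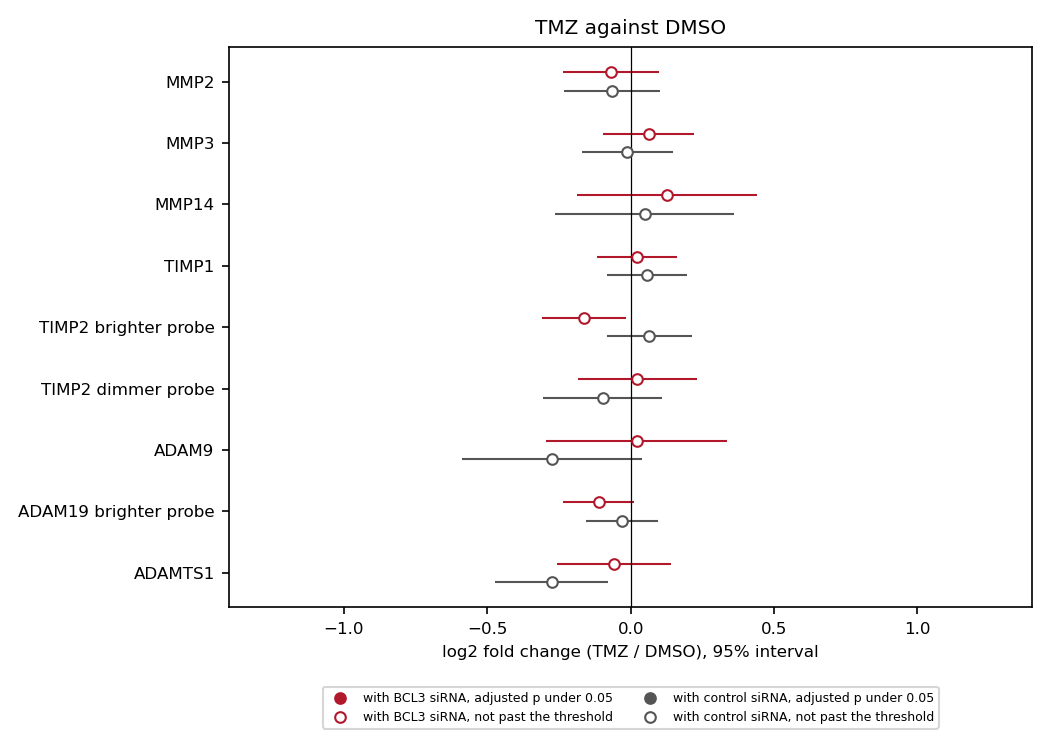
Log2 fold change of TMZ over DMSO for the 9 member probes tested, with 95% intervals from limma, separately with BCL3 siRNA and with control siRNA; every point is open because none passed an adjusted p-value of 0.05. The lowest values are those of ADAM9 and ADAMTS1 with control siRNA, both at -0.27.

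Further genes of the families were read from lists, each gene by its brightest probe, beside 17.1% of 10686 genes risen and 18.9% fallen with BCL3 siRNA under TMZ and 19.3% risen and 18.8% fallen under DMSO. Of 19 other matrix metalloproteinases 3 passed the detection filter, MMP16, MMP23B and MMP24, and 0 were called by limma under either treatment, with 0 at an unadjusted p under 0.05 under TMZ and 1 under DMSO. The other 16 were not tested.

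Of 18 other ADAMs with a probe 6 were tested, and 1 rose and 2 fell under TMZ and 1 rose and 3 fell under DMSO. ADAM8, a protease first known from leukocytes, fell by 0.67 on the log2 scale under TMZ (SE 0.10) and by 0.67 under DMSO, and stood at -0.27 under each without background correction. ADAM15 fell by 0.50 under TMZ (SE 0.07) and by 0.41 under DMSO, although 1 of its 4 probes did not pass in either. ADAM17, the main sheddase of TNF and of several EGF receptor ligands, rose by 0.37 under TMZ (SE 0.07, adjusted p = 0.00167) and by 0.28 under DMSO (adjusted p = 0.00932); its other probes did not pass under TMZ, and 1 of them did under DMSO. ADAM10, a sheddase of Notch receptors and cadherins, had a log2 difference of -0.19 under TMZ (adjusted p = 0.206) and fell by 0.35 under DMSO (adjusted p = 0.0279), with overlapping groups and a call lost in 6 of 26 alternative settings. The dimmer ADAM10 probe did not pass under TMZ (0.15, adjusted p = 0.267) or under DMSO (-0.08, adjusted p = 0.546). Without background correction ADAM17 stood at 0.21 under TMZ and 0.16 under DMSO, and ADAM10 at -0.22 under DMSO.

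Of 23 other ADAMTS and ADAMTS-like genes with a probe 7 were tested, and 1 rose and 1 fell under TMZ and 1 rose and 2 fell under DMSO. ADAMTS5, an aggrecan-cutting protease, was detected on 1 of 3 BCL3 siRNA arrays and 3 of 3 control siRNA arrays under TMZ and passed there (log2 difference -0.63, adjusted p = 0.00016, between -0.67 and -0.20 over the alternative settings), so the size of its fall near background is not well set. Under DMSO it was not well above background on any BCL3 siRNA array and, with the main processing, at least 1.34-fold lower than with control siRNA. Over the alternative settings the ADAMTS5 log2 difference under DMSO ran from -0.80 to -0.22, so this bound does not hold in all of them. ADAMTS6 rose by 0.25 under TMZ (SE 0.08, adjusted p = 0.0228, lost in 5 of 26 alternative settings) and by 0.34 under DMSO (adjusted p = 0.00427). ADAMTS2, which trims procollagen, had -0.17 under TMZ (adjusted p = 0.179) and fell by 0.35 under DMSO (SE 0.09, adjusted p = 0.0112, lost in 1 of 26 alternative settings). The dimmer ADAMTS2 probe did not pass under DMSO (0.04, adjusted p = 0.869) and was detected on no BCL3 siRNA array under TMZ. Without background correction ADAMTS6 stood at 0.10 under TMZ and 0.14 under DMSO, and ADAMTS2 at -0.14 under DMSO.

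Of 21 activators, inhibitors and clearance genes with a probe 17 were tested, and 1 rose and 5 fell under TMZ and 1 rose and 6 fell under DMSO. PLAU, urokinase, which makes plasmin and so starts a cascade that activates MMP precursors, fell by 1.19 under TMZ (SE 0.07) and by 1.23 under DMSO. TIMP4, the remaining member of the inhibitor family, fell by 0.52 under TMZ (SE 0.08, adjusted p = 0.000378) and by 0.51 under DMSO. RECK, a membrane-anchored MMP inhibitor, rose by 0.62 under TMZ (SE 0.11, adjusted p = 0.000807) and by 0.52 under DMSO, where its other probe did not pass. THBS2, a matrix protein that clears MMP2 from the cell surface, fell by 0.66 under TMZ (SE 0.09) and by 0.62 under DMSO. THBS1 was detected on 1 of 3 BCL3 siRNA arrays under each treatment and on 2 of 3 control siRNA arrays under TMZ and 3 of 3 under DMSO. It passed with log2 differences of -0.33 under TMZ (adjusted p = 0.0495) and -0.63 under DMSO (between -0.72 and -0.19 over the alternative settings), whose size near background is not well set. Without background correction THBS2 stood at -0.28 under TMZ and -0.26 under DMSO, and RECK at 0.30 under TMZ. Of the inhibitors, by brightest probe, TIMP2 and TIMP4 were therefore lower and RECK higher with BCL3 siRNA. TIMP1 did not pass under either treatment, and the dimmer TIMP2 probe did not pass under TMZ.

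Of 29 substrates with a probe 20 were tested, and 8 rose and 5 fell under TMZ and 6 rose and 5 fell under DMSO. HBEGF, an EGF receptor ligand released by ADAM proteases, fell by 0.80 under TMZ (SE 0.06) and by 0.59 under DMSO. For TMZ against DMSO with BCL3 siRNA, HBEGF was lower by 0.36 on the log2 scale (limma, adjusted p = 0.0238), a call lost in 8 of 26 alternative settings. It was 1 of the 20 substrates tested, beside 0.225% of 10686 genes fallen in that comparison. With control siRNA 0 substrates were called for TMZ against DMSO, and the interaction called 0 substrates. The HBEGF call is therefore not shown to be particular to BCL3 siRNA. CD44, the hyaluronan receptor, fell by 0.62 under TMZ (SE 0.06) and by 0.65 under DMSO. A second CD44 probe fell by 1.09 under TMZ and by 1.09 under DMSO, and another did not pass in either, at 0.16 under TMZ. SDC1, syndecan 1, fell by 0.51 under TMZ (SE 0.08) and by 0.46 under DMSO. TGFA, another shed EGF receptor ligand, fell by 0.36 under TMZ (SE 0.07) and by 0.44 under DMSO. NRG1, neuregulin, rose by 0.35 under TMZ (SE 0.07) and by 0.49 under DMSO by its brightest probe, while another NRG1 probe had -0.22 under TMZ (adjusted p = 0.0539) and fell by 0.23 under DMSO (adjusted p = 0.0397). COL1A2, a chain of type I collagen, rose by 0.51 under TMZ (SE 0.09) and by 0.50 under DMSO by its brightest probe, and by 2.45 and 2.56 by its dimmer probe.

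Of 20 transcription factors named for metalloproteinase promoters all 20 were tested, and 4 rose and 6 fell under TMZ and 5 rose and 8 fell under DMSO. The ETS family members ETS2, ETV4 and ETV5 fell by 0.58, 0.71 and 0.62 under TMZ and by 0.74, 0.49 and 0.56 under DMSO. RELA, the p65 subunit of NF-kB, fell by 0.26 under TMZ (SE 0.07, adjusted p = 0.014) and by 0.33 under DMSO, and RUNX1 fell by 0.36 under TMZ (SE 0.07) and by 0.34 under DMSO. Without background correction ETV4 stood at -0.30 under TMZ and -0.22 under DMSO, and RELA at -0.18 under DMSO. The factors that rose, named here after their values were seen, were ETS1, FOSL1, FOSL2 and FOSB, by 0.46, 0.28, 0.31 and 0.33 under TMZ and by 0.46, 0.34, 0.21 and 0.34 under DMSO, and NFKB1, by 0.32 under DMSO. The ETS1 groups overlap under TMZ. No adjusted p was taken over a list alone.

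**Figure D4:**
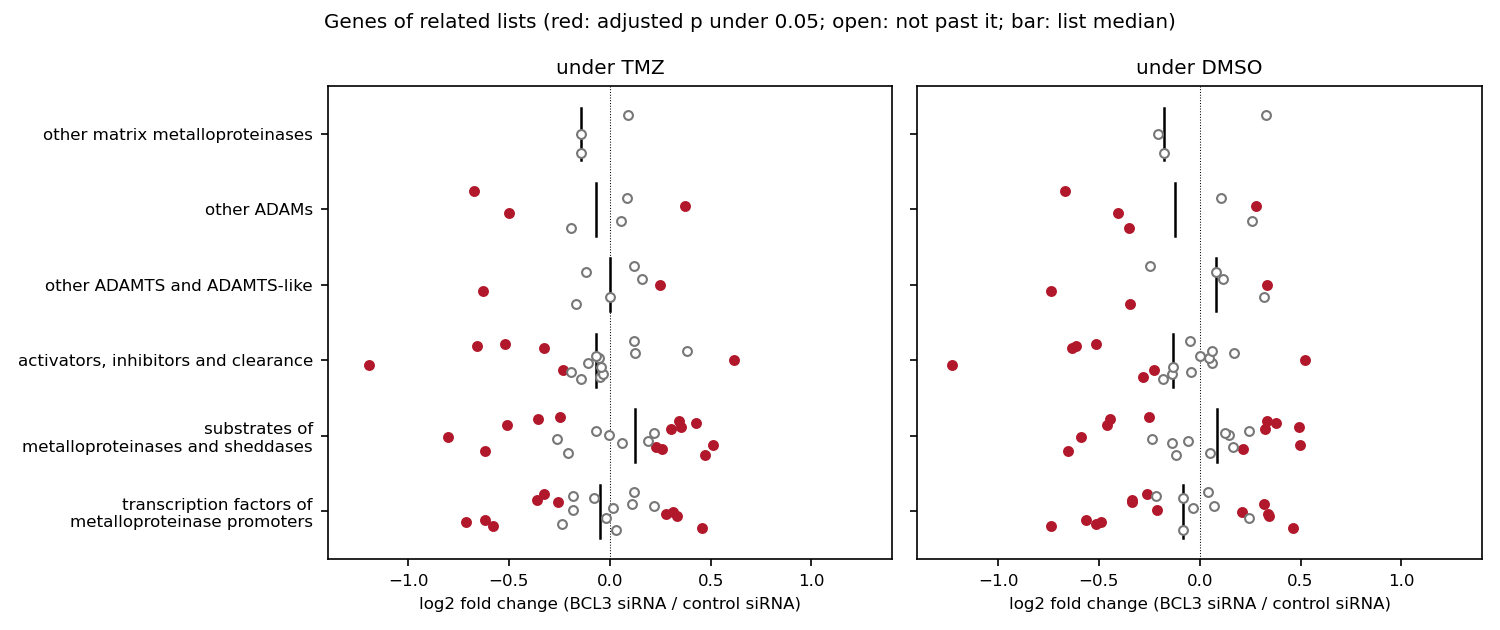
Log2 fold change of BCL3 siRNA over control siRNA for the tested genes of each further list, under TMZ and under DMSO, each gene by its brightest probe; filled points passed an adjusted p-value of 0.05. The lowest points are those of PLAU, at -1.19 and -1.23.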

How the data were processed

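RNA of 12 samples was labelled as biotin cRNA with an Ambion kit and read on Illumina arrays, per the labels. The deposited probe intensities were on a linear scale and had not been normalized by the authors, judged from the values. For scanning, the software is not given in the sources used here. Columns of deposited detection p-values had no sample name per the file headers, and each was assigned to the array whose intensities it followed most closely in reverse rank. A table of intensities that the authors had normalized served as an alternative.
With R 4.3.3 and limma 3.58.1, the neqc function gave background-corrected, quantile-normalized log2 values (offset 16). The filter kept a probe if at least 3 arrays had detection p under 0.01. A mean per group was estimated per probe from the 12 arrays together (lmFit, eBayes, 8 residual degrees of freedom), with 2-sided p-values adjusted by Benjamini and Hochberg over 18105 probes. The steps were also run on simulated data with few changed probes and independent noise. The siRNA comparisons had many called probes, so that run does not show how the steps perform there. The number of arrays limits the precision. Probes were named from the platform table: 30112 had 1 symbol, 8 several and 17200 none.
The members and lists were chosen with earlier results of these data known. Named were all member probes, BCL3, and per list and comparison up to 4 called genes with the lowest p. Epithelial (EPCAM of 4), endothelial (TEK of 4) and neuron or oligodendrocyte markers (SNAP25 and SYT1 of 5) also passed the filter. Same-numbered arrays did not clearly deviate together (correlations -0.150 to 0.180 over 18 pairs, 4 above 0.1), but so few arrays per group may not show a pairing. The labels do not state one, and the replicate number was a block only in an alternative. Alternatives covered background correction, normalization, filters, arrays fitted, the replicate block, moderation, array weights and each array left out.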

Additional observations from a re-analysis of the deposited data

How the results depend on the processing

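Under 14 other settings and 12 fits that each left out 1 array, the called member values kept their direction in 207 of 207 cases and their call in 190; the 17 lost calls were those of the dimmer TIMP2 probe and ADAMTS1 under DMSO. The ADAM19, MMP3 and brighter TIMP2 calls held throughout. Member probes fallen under DMSO numbered 3, and 1 with no filter or with only the arrays compared, and 1 to 3 with 1 array left out. The count was also below 3 without background correction, with median scaling and at detection p under 0.05, where the dimmer TIMP2 call was lost. It was below 3 too with the brightest probe per gene, a fit that leaves the dimmer TIMP2 probe out. With the replicate block, TMZ against DMSO with control siRNA called 57 probes in place of 90 and no member call was lost. Over the whole table that comparison called 356 with normexp by maximum likelihood and an offset of 50 together, 467 without background correction, 298 with an offset of 50 alone, 59 at detection p under 0.05, 55 with only the arrays compared, 386 with trend and robust moderation, 173 with array weights, and 35 to 87 with 1 array left out. With BCL3 siRNA the 86 calls became 311, 358 and 266 under those first 3 settings, 142 with detection on all 12 arrays, 6 with only the arrays compared, 321 with trend and robust moderation, and 31 to 80 with 1 array left out. The interaction had 4, 3 and 5 calls under those first 3 settings and 3 with trend and robust moderation.
Median scaling moved the median of all probes to 0.11 under DMSO and 0.05 under TMZ, and split the siRNA calls into 4967 risen and 2442 fallen under DMSO (3187 and 3138 with quantile normalization) and 3940 and 2476 under TMZ (3045 and 3018). It turned values that were not called: MMP14 to 0.14 and TIMP1 to 0.16 for the siRNA under DMSO, TIMP1 to 0.12 under TMZ, MMP14 to -0.032, TIMP1 to -0.032 and dimmer TIMP2 to -0.025 for TMZ with BCL3 siRNA, and the interaction of MMP14 to -0.16 and of MMP2 to 0.0042 (0.0057 with cyclic loess). With 1 array left out, uncalled values that changed sign ran from -0.17 to 0.068 (MMP14) and -0.095 to 0.0016 (TIMP1) for the siRNA under TMZ, from -0.13 to 0.18 (ADAM9), -0.0053 to 0.057 (TIMP1) and -0.036 to 0.093 (dimmer TIMP2) for TMZ with BCL3 siRNA, from -0.0069 to 0.14 (MMP14) and -0.092 to 0.058 (MMP3) for TMZ with control siRNA, and from -0.017 to 0.24 (MMP14), -0.056 to 0.055 (MMP2) and -0.074 to 0.022 (TIMP1) for the interaction. The causes were not tested. Signal over background limits MMP1, MMP14, TIMP3 and the dimmer ADAM19 probe.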
